A study of Mus musculus with 6 samples.

Results

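The alpha-arrestins and the glucose-sensing factors that control some of them were followed in hearts of mice that lack Arrdc4. The set comprised 8 genes of the 49315 in the count table: the 5 alpha-arrestin genes Arrdc1, Arrdc2, Arrdc3, Arrdc4 and Txnip, and the 3 genes of the MondoA family, Mlxip, Mlx and Mlxipl. They were chosen by name through their Ensembl identifiers, with earlier results of these data known, and all 8 passed the filter on low counts. RNA was sequenced from 3 heart samples of mice with an ARRDC4 knock-out made by CRISPR-Cas9 (KO) and 3 heart samples of wild-type mice (WT), called hearts here. Both groups were of the C57BL/6 background, each heart gave 1 library, and the labels give no treatment, age, sex or litter, nor the edited position or the number of founder lines. The labels do not say whether the 3 samples of a genotype came from separate mice, so p-values measure only the spread between these hearts.

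Alpha-arrestins are adaptor proteins. Through short PPxY motifs they bind the WW domains of NEDD4-type ubiquitin ligases and bring these to membrane proteins such as receptors and transporters. Txnip, the best known of them, also binds thioredoxin and restrains glucose uptake. MondoA (Mlxip) and its relative ChREBP (Mlxipl) each pair with Mlx. When phosphorylated sugars accumulate, these dimers act in the nucleus on paired E-box elements, and Txnip and Arrdc4 are among the best known MondoA targets. MondoA is the form described for muscle and ChREBP the form described for liver and fat.

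The sequences upstream of 3 start sites are shown because Arrdc4 is the gene that was knocked out and Arrdc2 and Txnip varied most between hearts among the other members. They are RefSeq sequences of GRCm38.p6, read 5′ to 3′ on the strand of the gene and ending 1 base before the annotated start. Capitals mark CCAAT on either strand, the E-box CACGTG, and both CACG ends of the spaced pair CACGNNNNNNNCACG. The windows are chr7:68749239-68749488 (minus strand) for Arrdc4, chr3:96557807-96557956 (plus strand) for Txnip and chr8:70839721-70839870 (minus strand) for Arrdc2.
Arrdc4: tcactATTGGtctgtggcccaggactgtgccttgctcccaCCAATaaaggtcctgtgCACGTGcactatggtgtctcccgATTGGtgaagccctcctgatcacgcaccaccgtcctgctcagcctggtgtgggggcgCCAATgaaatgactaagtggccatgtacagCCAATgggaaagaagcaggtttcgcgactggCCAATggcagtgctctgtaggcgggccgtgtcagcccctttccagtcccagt
Txnip: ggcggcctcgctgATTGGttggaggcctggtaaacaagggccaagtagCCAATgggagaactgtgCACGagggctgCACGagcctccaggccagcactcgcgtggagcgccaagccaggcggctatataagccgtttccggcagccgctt
Arrdc2: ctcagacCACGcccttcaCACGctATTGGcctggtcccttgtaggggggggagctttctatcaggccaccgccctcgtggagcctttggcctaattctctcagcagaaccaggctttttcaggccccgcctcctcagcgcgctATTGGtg

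The motifs were counted in the 250 bases upstream of every start site in the RefSeq table, on both strands. The spaced pair CACGNNNNNNNCACG was present upstream of Txnip, from 85 to 71 bases before the start, and upstream of Arrdc2, from 143 to 129 bases before it. It was found in 0.512% of 32841 such windows. Arrdc4, Mlx and the first of the 2 Mlxipl start sites each had 1 CACGTG, which 6.02% of windows held. CCAAT, the box bound by NF-Y, was present 6 times upstream of Arrdc4, a number reached by 0.0579% of windows. It was present 2 times upstream of Txnip and 3 times upstream of Arrdc2, where the farthest copy lies outside the stretch shown, and at least 1 copy was found in 33.9% of windows. No CACGTG and no CCAAT overlapped another match in these 3 sequences. These matches describe the sequence only, and the motifs were chosen with the sequences in view.

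The libraries held 29974501 to 41036626 counts. Levels are given in CPM, a count scaled to a common library size. The knockout hearts of replicates 2 and 3 and the wild-type heart of replicate 3 had 1.11 to 2.06 CPM over 4 Y-linked genes, against 146 to 165 CPM in the other 3 hearts, so sex was not balanced between the genotypes. Across all tested genes, KO heart 2 and WT heart 3 stood apart from the other 4, with long genes low and short genes high. The median log2 deviation of the 25% of genes with the longest exons minus that of the 25% with the shortest was -0.46 in each of these 2 hearts and 0.04 to 0.30 in the other 4. The defining cardiomyocyte markers were all detected, with 44911 to 56788 CPM in KO hearts and 45316 to 52387 CPM in WT hearts over 7 genes. Macrophage markers were highest in KO heart 1 for 6 of 6 genes and fibroblast markers for 4 of 6. The share of all tested genes that were highest in KO heart 1 was not counted. Adipocyte and hepatocyte markers, of tissues in which Mlxipl is abundant, summed to at most 0.836 and 4.12 CPM in any heart.

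Txnip made up most of the alpha-arrestin transcript in these hearts. Per kilobase of exon, Txnip stood at 66.8, 59.3 and 169 CPM in KO hearts, against 74.6, 62.0 and 87.1 CPM in WT hearts. That was 89.6 ± 3.45% of the summed per-length level of the 5 alpha-arrestins in KO hearts and 86.0 ± 2.41% in WT hearts (SD, n = 3 each). Arrdc3, an adaptor known to bind beta-adrenergic receptors, followed with 7.67 ± 0.778 CPM per kilobase in KO hearts and 7.16 ± 0.205 in WT hearts. Arrdc4 took 0.0194 ± 0.0167% of the family's per-length level in KO hearts and 2.66 ± 0.543% in WT hearts.

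Among WT hearts the order per length was Txnip, Mlx (10.4 ± 3.75 CPM per kilobase), Arrdc3, Mlxip (4.57 ± 0.904), Mlxipl (3.07 ± 0.573), Arrdc4 (2.28 ± 0.396), Arrdc2 (1.88 ± 0.773) and Arrdc1 (0.635 ± 0.101). The WT ranges of Txnip and Mlx did not overlap, and neither did those of Arrdc3 and Mlxip, of Mlxip and Mlxipl, or of Arrdc2 and Arrdc1. The ranges of Mlxipl and Arrdc4 overlapped, and so did those of Arrdc4 and Arrdc2. The Mlx and Arrdc3 ranges lay close, with a lowest Mlx value of 7.73 and a highest Arrdc3 value of 7.35, and their means differed by less than the SD of Mlx. With the length of the longest transcript in place of all exons, Arrdc3 (10.9) stood above Mlx (10.5) and Arrdc2 (2.58) above Arrdc4 (2.36) in WT hearts. Mlxip, at 4.14 to 6.19, then overlapped Mlxipl, at 3.71 to 5.37, so these neighbours have no fixed order.

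**Figure D1:**
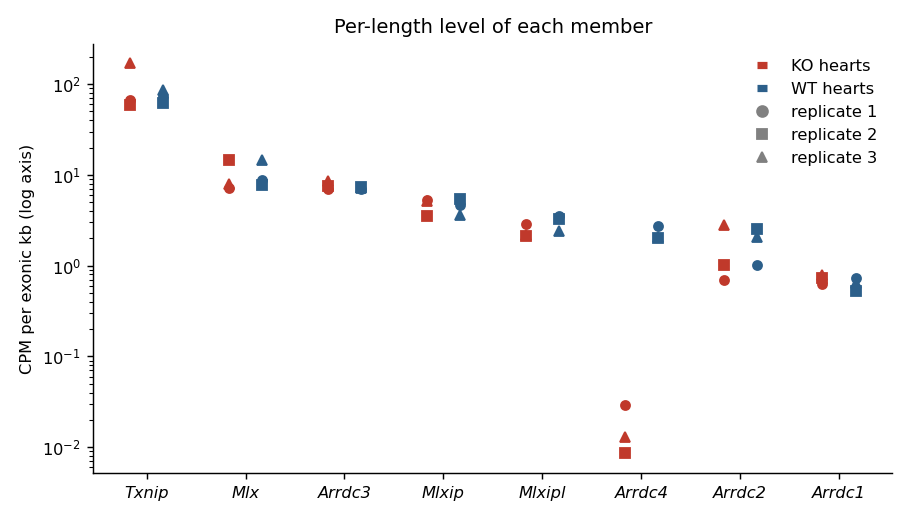
Level of each member per kilobase of annotated exon in CPM (log axis), for the 3 KO hearts in red and the 3 WT hearts in blue, with marker shape giving the replicate. Txnip lies above every other member in all 6 hearts, and Arrdc4 is the member whose KO values fall far below its WT values.

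Arrdc4 transcript was nearly absent from KO hearts. Arrdc4 (ENSMUSG00000042659, chr7:68736995-68749241, minus strand) had 5, 1 and 2 reads in KO hearts 1 to 3, against 349, 307 and 281 reads in WT hearts 1 to 3. All KO values lay below all WT values. This was 0.0678 ± 0.0432 CPM in KO hearts and 9.20 ± 1.60 CPM in WT hearts (SD, n = 3 each), a log2 fold change of -6.93 (SE 0.36, adjusted p = 0.00226, edgeR quasi-likelihood test). The reads left in KO hearts were 0.796% of the WT level, with an exact 95% interval of 0.343% to 1.58% that covers counting error only. Without KO heart 3 the adjusted p was 0.0519 in edgeR and the log2 fold change was -6.75. Within the hearts with Y-linked reads the log2 ratio of KO to WT means was -6.36, and within those without it was -7.59. Counts sum over all exons, so they do not show which part of the gene was edited.

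No other member passed the test. Arrdc4 was the 1 of the 8 members called, where the same rule called 0.00689% of the 14508 genes tested, and it was also the only one of the 8 whose KO and WT values did not overlap, as was so for 4.07% of all genes tested. Of the other 7, 4 had higher and 3 lower mean levels in KO hearts. A 2-fold change in either direction lay outside the 95% interval of 5 genes, Arrdc1, Arrdc3, Mlxip, Mlx and Mlxipl, and a 1.5-fold change outside that of Arrdc3 and Mlxip. Over all genes tested these shares were 76.5% for 2-fold and 39.7% for 1.5-fold.

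**Figure D2:**
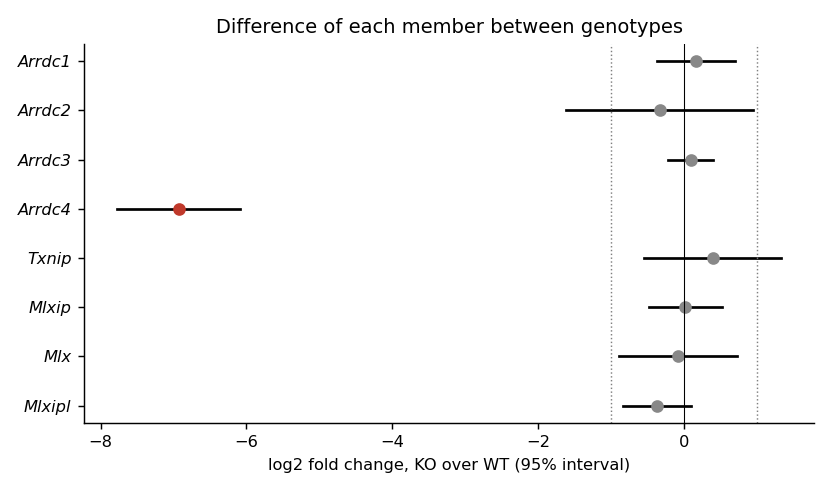
Log2 fold change of each member, KO over WT, as a point with its 95% interval from edgeR's quasi-likelihood fit; the member past the adjusted threshold is red and dotted lines mark a 2-fold difference. Arrdc4 lies at -6.93, and every other interval includes 0.

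Txnip, the thioredoxin-binding alpha-arrestin, was high in 1 KO heart. Txnip (ENSMUSG00000038393, chr3:96557957-96561883, plus strand) stood at 209, 185 and 527 CPM in KO hearts 1 to 3, against 233, 194 and 272 CPM in WT hearts 1 to 3. KO heart 3 lay above every other heart, KO heart 2 was the lowest of the 6, and KO heart 1 lay within the WT range. The log2 fold change was 0.40 (SE 0.40, 95% interval -0.54 to 1.34, unadjusted p = 0.352, adjusted p = 1 in edgeR), which as a fold runs from 0.687 to 2.53. Without KO heart 3 it was -0.24 (SE 0.21), without KO heart 2 it was 0.66 (SE 0.36), and without both KO heart 2 and WT heart 3 it was 0.78 (SE 0.39). The log2 ratio of KO to WT means was -0.03 in hearts with Y-linked reads, where KO heart 1 is the only knockout, and 0.39 in those without. The antisense gene Gm15441 shares 606 bases with Txnip exons and had 11 to 25 reads per heart, against 5374 to 20134 for Txnip.

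Arrdc2, a little-studied alpha-arrestin whose transcript rises with glucocorticoids in muscle, varied most among the members apart from Arrdc4. Arrdc2 (ENSMUSG00000002910, chr8:70835129-70839720, minus strand) stood at 2.24, 3.27 and 8.98 CPM in KO hearts 1 to 3, against 3.32, 8.20 and 6.69 CPM in WT hearts 1 to 3. KO heart 3 and WT heart 2 were high and KO heart 1 was the lowest, so the groups overlapped. Its SD of log2 CPM over the 6 hearts was 0.82, larger than that of 97.4% of tested genes. The log2 fold change was -0.33 (SE 0.55, 95% interval -1.62 to 0.96, adjusted p = 1 in edgeR). It was 0.02 without KO heart 1 and -1.15 (SE 0.43) without KO heart 3, where the unadjusted p was 0.0347 and the adjusted p again 1 in edgeR. Without WT heart 2 it was -0.05 and without WT heart 1 it was -0.62. With a term for Y-linked reads it was -0.72 (SE 0.57), and the log2 ratio of KO to WT means was -1.36 in hearts with those reads and -0.13 in hearts without.

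Arrdc3 differed little between hearts, and Arrdc1 somewhat more. Over the 6 hearts, 31.6% of tested genes varied less than Arrdc1. Arrdc3 (ENSMUSG00000074794, chr13:80883384-80896042, plus strand) stood at 43.8, 47.0 and 53.4 CPM in KO hearts, against 43.5, 46.1 and 44.9 CPM in WT hearts. Its highest value was again in KO heart 3, and only 9.59% of tested genes varied less over the 6 hearts. Its log2 fold change was 0.10 (SE 0.13, 95% interval -0.21 to 0.41, adjusted p = 1 in edgeR). Arrdc1 (ENSMUSG00000026972, chr2:24925352-24935252, minus strand), which recruits the budding machinery to the plasma membrane, was the least abundant member in WT hearts per length, at 1.56, 1.83 and 1.99 CPM in KO hearts, against 1.84, 1.33 and 1.61 CPM in WT hearts. These were 53 to 76 reads in KO hearts and 50 to 58 reads in WT hearts, and the log2 fold change was 0.17 (SE 0.23, 95% interval -0.37 to 0.71). The log2 ratios of KO to WT means in hearts with and without Y-linked reads were -0.03 and 0.16 for Arrdc3, and -0.02 and 0.24 for Arrdc1.

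**Figure D3:**
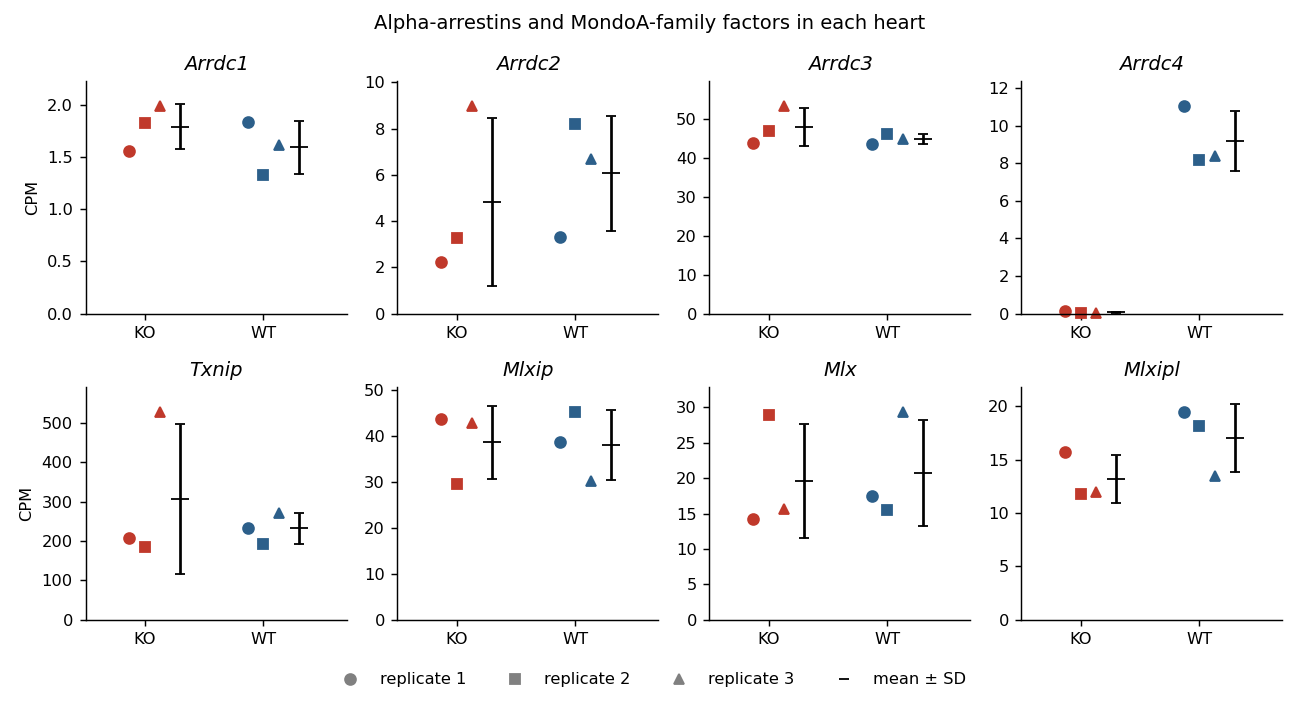
CPM of the 8 members in each heart, KO on the left and WT on the right of each panel; marker shape gives the replicate and the black bar the mean ± SD of 3 hearts. Arrdc4 separates the genotypes, Txnip is high in KO heart 3 at 527 CPM, and Mlx is high in KO heart 2 and WT heart 3.

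Mlxipl, which encodes ChREBP, had the smallest p of the 7 members other than Arrdc4 without passing the test. Mlxipl (ENSMUSG00000005373, chr5:135089890-135138382, plus strand) stood at 15.8, 11.8 and 12.0 CPM in KO hearts, against 19.5, 18.2 and 13.4 CPM in WT hearts. WT heart 3 lay within the KO range, so the groups overlapped. The log2 fold change was -0.37 (SE 0.20, 95% interval -0.83 to 0.10, unadjusted p = 0.106, adjusted p = 1 in edgeR), and 3.21% of tested genes had a smaller p. With KO heart 2 and WT heart 3 given a separate level it was -0.36 (SE 0.13, unadjusted p = 0.0284, adjusted p = 0.940 in edgeR). That setting was chosen after the data were seen and gave the smallest unadjusted p of the 17 other settings tried. The unadjusted p in edgeR was also under 0.05 without KO heart 1, without WT heart 3, without both KO heart 2 and WT heart 3, and with the length offset. Over the 17 settings the adjusted p ran from 0.629 to 1.

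Hearts with and without Y-linked reads were also compared for Mlxipl. The 3 hearts without those reads had 11.8 to 13.4 CPM and the 3 with them 15.8 to 19.5 CPM, with no overlap. The other 7 members overlapped between these hearts, and since 12.3% of all tested genes did not, 1 of 8 is near the background. The log2 ratio of KO to WT means was -0.25 within hearts with Y-linked reads and -0.18 within hearts without, and with a term for these reads the log2 fold change was -0.22 (SE 0.13). RefSeq gives Mlxipl 2 start sites that lie 17001 bases apart. Counts per gene do not separate the transcripts from each.

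Mlx and Mlxip, the partners in the MondoA dimer, varied in opposite directions across hearts of both genotypes. Mlx (ENSMUSG00000017801, chr11:101087277-101092207, plus strand) stood at 14.3, 28.9 and 15.7 CPM in KO hearts 1 to 3, against 17.4, 15.4 and 29.3 CPM in WT hearts 1 to 3. KO heart 2 and WT heart 3 were high and the other 4 hearts low. Mlxip (ENSMUSG00000038342, chr5:123394798-123457932, plus strand) stood at 43.6, 29.6 and 42.9 CPM in KO hearts, against 38.8, 45.2 and 30.2 CPM in WT hearts. The same 2 hearts were its lowest.

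Per kilobase of exon, the ratio of the Mlxip to the Mlx level was 0.734, 0.246 and 0.656 in KO hearts 1 to 3, against 0.535, 0.703 and 0.248 in WT hearts 1 to 3. The longest annotated transcript of Mlx has 1965 bases and that of Mlxip 7303 bases. KO heart 2 and WT heart 3 are also the hearts in which long genes were low and short genes high over all genes. WT heart 1, whose length difference of 0.04 lay between the others, also lay between them for both genes. Arrdc3, with 6266 exon bases, deviated from its mean by 0.02 log2 CPM in KO heart 2 and by -0.04 in WT heart 3. The part of the length trend in the Mlx and Mlxip values was not tested beyond an offset for it. Of all tested genes, 29.4% had these 2 hearts as their highest and 29.0% as their lowest.

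**Figure D4:**
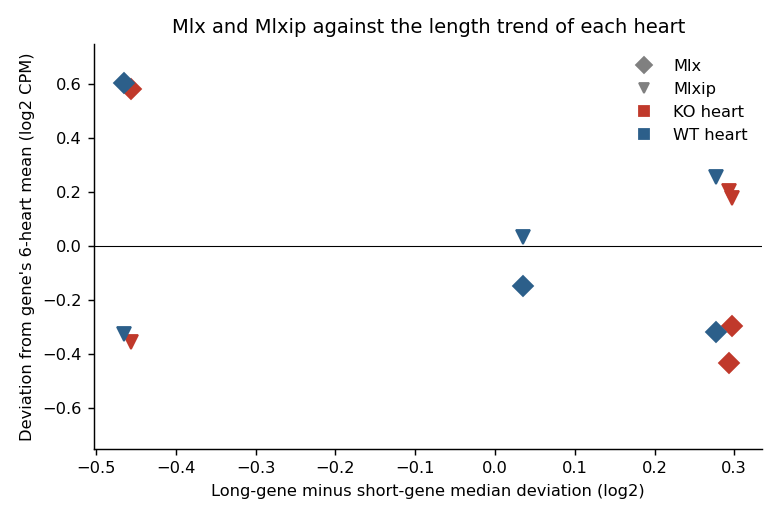
Deviation of Mlx (diamonds) and Mlxip (triangles) from their 6-heart means in log2 CPM, against each heart's median deviation of long genes minus that of short genes in log2; KO hearts are red and WT hearts blue. In KO heart 2 and WT heart 3, at -0.46 on the horizontal axis, Mlx lies above and Mlxip below 0, and in the 4 hearts at 0.04 to 0.30 Mlx lies below and Mlxip above 0.

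Between genotypes neither gene passed the test. The log2 fold change of Mlx was -0.08 (SE 0.34, 95% interval -0.89 to 0.73) and that of Mlxip 0.02 (SE 0.21, 95% interval -0.48 to 0.53), each with an adjusted p of 1 in edgeR. With KO heart 2 and WT heart 3 as a separate level, the values were -0.09 (SE 0.10) for Mlx and 0.02 (SE 0.09) for Mlxip, and with an offset for the length trend -0.07 (SE 0.25) and -0.04 (SE 0.14). Mlx moved to -0.47 without KO heart 2 and to 0.25 without WT heart 3. The log2 ratios of KO to WT means in hearts with and without Y-linked reads were -0.20 and -0.39 for Mlx and 0.05 and 0.26 for Mlxip. The gene Psmc3ip on the opposite strand shares 385 bases, 19.3% of the exon length, with Mlx. It stood at 1.96 to 3.79 CPM, and since the strand setting of the counting is not given, part of its reads may not be told apart from those of Mlx.

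Pairs of members were compared over the 6 hearts, leaving out Arrdc4. Of the 21 pairs, 0 passed an exact permutation test of Pearson's r after Benjamini-Hochberg adjustment, and 0 passed with Spearman's rho. With 6 hearts the smallest exact permutation p that rho can reach is 0.00278. A single pair at that p would not pass after adjustment over 21 pairs, so the result for rho does not show that relations are absent. The smallest observed p was that of Mlx and Mlxip, with Pearson's r of -0.99 (exact permutation p = 0.00833, adjusted p = 0.175). Their Spearman's rho was -0.89 (exact permutation p = 0.0333, adjusted p = 0.700). Their values fall into the 2 groups of hearts just described, so r over all 6 hearts partly measures that split. Without KO heart 2 and WT heart 3, r was -0.80. Txnip and Arrdc3, which are both highest in KO heart 3, gave Pearson's r of 0.78 (exact permutation p = 0.142, adjusted p = 0.677) and Spearman's rho of 0.03 (exact permutation p = 1). Without the 2 hearts farthest from the Arrdc3 median, KO heart 3 and WT heart 1, r was -0.50, so the relation rests on those hearts. Arrdc2 and Txnip gave r of 0.57 (exact permutation p = 0.224, adjusted p = 0.677) and rho of 0.54 (exact permutation p = 0.297, adjusted p = 1), and r was 0.19 without KO hearts 1 and 3.

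The genes closest to Arrdc2 and Txnip in their pattern were found by the root mean square distance between log2 deviations from each gene's mean over the 6 hearts, among 12994 other named genes. For Arrdc2 the closest were Pcdhb3, a protocadherin (distance 0.30), Fam107a (0.33) and Gdap10 (0.33), where the distance of Arrdc2 from a flat line is 0.75. Fam107a stood at 1.63, 1.65 and 3.12 CPM in KO hearts, against 1.42, 4.39 and 3.64 CPM in WT hearts. Pcdhb3 stayed under 0.42 CPM and Gdap10 under 1.04 CPM in each heart, so their patterns rest on few reads. For Txnip the closest were Lefty1, a secreted antagonist of Nodal (0.16), Rec8, a meiotic cohesin subunit (0.20), and Chd6, a chromatin remodeller (0.24), against 0.51 from a flat line. Rec8 stood at 0.186 to 0.524 CPM and Lefty1 at 0.666 to 1.78 CPM, so these patterns also rest on few reads. Chd6 stood at 43.5, 41.6 and 88.3 CPM in KO hearts, against 40.9, 51.6 and 64.6 CPM in WT hearts. Among the members, Txnip was 216th in closeness to Arrdc2, and Arrdc1 was 512th and Arrdc3 608th in closeness to Txnip. Arrdc2 was 8734th in closeness to Txnip, at a distance of 0.62 that is more than the 0.51 of a flat line.

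Arrdc2 was set beside genes of the clock and of the glucocorticoid and fasting responses. Over 16 clock genes the summed level was 443, 411 and 805 CPM in KO hearts 1 to 3, against 409, 659 and 370 CPM in WT hearts 1 to 3. KO heart 3 and WT heart 2 were the highest pair for 10 of these 16 genes and for 7 of 18 glucocorticoid- and fasting-responsive genes, against 10.9% of all tested genes. The same 2 hearts were the lowest pair for the clock genes Arntl, Clock, Npas2, Cry1 and Nfil3, so the sum mixes genes of opposite direction. Arntl stood at 2.09 CPM in KO heart 3 and 5.78 CPM in WT heart 2, below every other heart. The share of all tested genes with this lowest pair was not counted. WT heart 2 was the highest heart for 12 of the 18, and KO heart 3 for 5, while Arrdc2 was highest in KO heart 3. For single hearts the share over all tested genes was not counted. Dbp, a clock output factor, stood at 31.8, 20.3 and 142 CPM in KO hearts, against 16.3, 84.6 and 10.5 CPM in WT hearts. Arrdc2 was high in these 2 hearts too, and also in WT heart 3, where Dbp was lowest. Tsc22d3, a glucocorticoid-induced leucine zipper gene chosen after its values were seen, was 21st in closeness to Arrdc2, with 36.9, 51.8 and 59.6 CPM in KO hearts and 43.5, 75.8 and 57.2 CPM in WT hearts. The other 4 genes of these responses that were ranked came much lower in closeness. Zbtb16 was 2011th, Per1 2565th, Pdk4 8854th and Dbp 12603rd of 12994. The distance of Dbp was 1.13, beyond the 0.75 of a flat line. This distance also counts the size of the swings, so a low rank can come with a shared direction. Dbp deviated from -1.65 in WT heart 3 to 2.10 in KO heart 3. Arrdc2 deviated from -1.08 in KO heart 1 to 0.90 in KO heart 3. Whether these genes share a direction with Arrdc2 was not tested. The collection time of the hearts is not given in the labels, and its part in the Arrdc2 values was not tested.

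**Figure D5:**
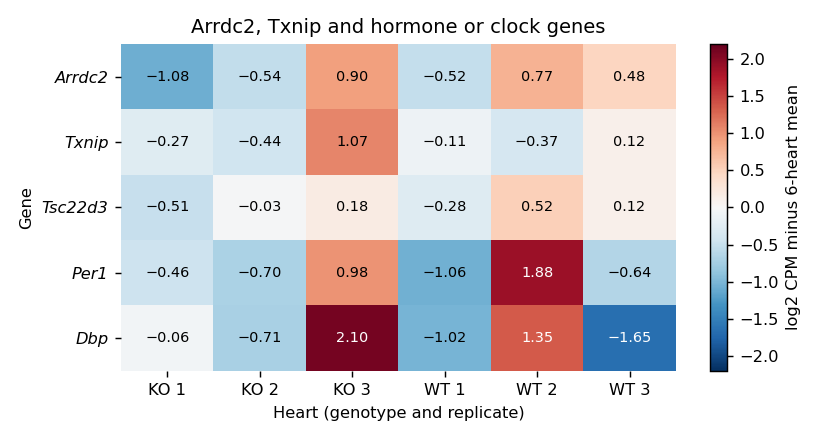
Log2 CPM minus each gene's mean over the 6 hearts for Arrdc2, Txnip, the glucocorticoid-induced gene Tsc22d3 and the clock genes Per1 and Dbp, KO hearts on the left and WT hearts on the right; red is above and blue below the mean. Arrdc2, Per1 and Dbp are all above their means in KO heart 3 and WT heart 2, in WT heart 3 Arrdc2 is above its mean and Per1 and Dbp are below theirs, and Txnip is well above its mean in KO heart 3 alone, by 1.07.

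Genes that act with the members were read from the same test. In 8 lists no gene passed, with edgeR, DESeq2 or limma-voom, and counts below describe means that did not pass. The median log2 fold change over all genes tested was 0.01, and 7590 of 14508 were higher in KO hearts. At an unadjusted p under 0.05 edgeR held 1.23% of all tested genes, and 2 genes of these lists, Thrsp and Ddit4.

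The glucose-responsive targets of MondoA and ChREBP are the list nearest to the factors. Of 18 listed genes 15 were tested, 9 higher and 6 lower in KO hearts, with a median log2 fold change of 0.10. Thrsp, a lipogenic gene induced by carbohydrate in liver, stood at 16.0, 21.9 and 15.4 CPM in KO hearts, against 22.1, 30.7 and 25.0 CPM in WT hearts. Its KO values all lay below its WT values, with a log2 fold change of -0.55 (SE 0.20, unadjusted p = 0.0267, adjusted p = 1 in edgeR). Groups did not overlap for 2 of the 15 tested genes, and for 4.07% of all genes tested. The other of these 2, Gpd1, makes glycerol 3-phosphate. Gpd1 stood at 62.4, 57.1 and 69.9 CPM in KO hearts, against 73.2, 77.3 and 77.2 CPM in WT hearts. It was chosen after its values were seen, and its log2 fold change was -0.26 (SE 0.13). The most abundant per length were Hk2, the insulin-responsive hexokinase of muscle, at 48.4 CPM per kilobase in KO hearts and 43.7 in WT hearts (log2 fold change 0.15, SE 0.34), and Acacb, the acetyl-CoA carboxylase of muscle mitochondria, at 33.1 in KO hearts and 32.2 in WT hearts (0.04, SE 0.34). KO heart 2 and WT heart 3 were the lowest pair for 7 of the 15, against 29.0% of all tested genes. Pklr, G6pc and Fgf21 were too low to test, and G6pc had no read in any heart.

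In the MAX and MLX network, whose proteins compete for Max or Mlx as partners, 7 of 8 tested genes had higher and 1 lower mean levels in KO hearts, with a median log2 fold change of 0.09. Mycn stood at 7.28, 2.27 and 2.91 CPM in KO hearts, against 2.94, 1.68 and 1.25 CPM in WT hearts, with a log2 fold change of 1.10 (SE 0.51), and its high value was in KO heart 1. Epicardial markers were highest in that heart too for 5 of 5 genes. Their sum was 33.6, 5.44 and 19.4 CPM in KO hearts and 12.2, 8.02 and 6.54 CPM in WT hearts. Also highest in KO heart 1 were macrophage markers for 6 of 6 genes and erythroid markers for 4 of 5. The same held for endothelial and fibroblast markers for 4 of 6 genes each. No share over all tested genes was counted for that heart alone. The part of these cell types in the Mycn value was not tested. Mnt, a repressor that also binds Mlx, stood at 0.24 (SE 0.27). The most abundant per length were Max, at 9.61 CPM per kilobase in KO hearts and 9.38 in WT hearts, and Mxd4, at 7.24 in KO hearts and 6.61 in WT hearts. For 7 of the 8 a 2-fold change lay outside the 95% interval.

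The NEDD4-family ligases and adaptors, to which alpha-arrestins bind, split into 6 higher and 4 lower of 10 tested, with a median log2 fold change of 0.04. A 2-fold change lay outside the 95% interval of all 10. KO heart 2 and WT heart 3 were the lowest pair for 7 of the 10, against 29.0% of all tested genes. Nedd4 was the most abundant per length, at 40.3 CPM per kilobase in KO hearts and 38.3 in WT hearts (log2 fold change 0.08, SE 0.27), followed by the adaptor Ndfip1 (-0.06, SE 0.24). Smurf2, with the smallest p, stood at 0.09 (SE 0.12), and Hecw2 at 0.11 (SE 0.29). Of the other arrestin-fold genes, 6 of 9 were tested, 2 higher and 4 lower, with a median of -0.05. The retromer subunits Vps26a and Vps26b stood at -0.05 (SE 0.19) and -0.08 (SE 0.14), and the beta-arrestin Arrb1 at 0.21 (SE 0.27). The alpha-arrestin Arrdc5 was too low to test.

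All 11 genes of the thioredoxin system were tested, 4 higher and 7 lower, with a median log2 fold change of -0.01. A 2-fold change lay outside the interval of each. Prdx3, the mitochondrial peroxiredoxin, was the most abundant per length at 206 CPM per kilobase in KO hearts and 232 in WT hearts (log2 fold change -0.17, SE 0.28), followed by Prdx5 (-0.15, SE 0.25), and Txn2, the mitochondrial thioredoxin, stood at -0.13 (SE 0.18). KO heart 2 and WT heart 3 were the highest pair for 8 of the 11, against 29.4% of all tested genes. Short genes were high in these 2 hearts over all genes. Of 11 tested cargoes and partners of alpha-arrestins 6 were higher and 5 lower, with a median of 0.07. The glucose transporter Slc2a4 was the most abundant, at 124 CPM per kilobase in KO hearts and 132 in WT hearts (log2 fold change -0.09, SE 0.14). Slc2a1, a glucose transporter that Txnip brings into endosomes, stood at -0.20 (SE 0.17), and Tsg101, which Arrdc1 recruits for budding, at -0.07 (SE 0.18). The beta-adrenergic receptor Adrb1 stood at 27.4, 23.5 and 30.2 CPM in KO hearts, against 23.2, 22.3 and 22.6 CPM in WT hearts. Its KO values all lay above its WT values, with a log2 fold change of 0.25 (SE 0.14, unadjusted p = 0.113, adjusted p = 1 in edgeR). Adrb1 was the 1 of the 11 whose groups did not overlap, as was so for 4.07% of all genes tested.

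Glucocorticoid- and fasting-responsive genes split into 6 higher and 12 lower of 18 tested, with a median log2 fold change of -0.21. Ddit4, an inhibitor of mTOR induced by stress and glucocorticoids, stood at 24.4, 55.6 and 39.6 CPM in KO hearts, against 51.1, 77.7 and 72.1 CPM in WT hearts (log2 fold change -0.75, SE 0.31, unadjusted p = 0.0440, adjusted p = 1 in edgeR). KO heart 2 lay within the WT range. Hif3a stood at -0.94 (SE 0.51) from a level under 1 CPM, and the abundant genes Pdk4, a kinase that limits glucose oxidation, and Mt1, a metallothionein, at -0.06 (SE 0.37) and -0.23 (SE 0.20). Clock genes split into 10 higher and 6 lower of 16, with a median of 0.20. The intervals were wide, and 4 of them left out a 2-fold change. Nr1d2 stood at 0.30 (SE 0.24), Bhlhe41 at 0.60 (SE 0.49), and the abundant Nr1d1 and Dbp at 0.25 (SE 0.29) and 0.80 (SE 0.96).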

How the data were processed

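Read counts per gene were measured by RNA sequencing of 6 mouse hearts. The deposited table holds whole-number counts that are not normalized, and the submitters' processing notes name STAR, featureCounts, Subread 1.5.2, DESeq2 and GRCm38.p6 without saying which did what. No source used here gives the annotation, the strand setting or the handling of shared reads. Columns were matched to samples by title. From these counts, genes were kept by filterByExpr of edgeR 4.0.16 (minimum count 10, minimum total 15), scaled by TMM, and tested by the quasi-likelihood F test, KO against WT. P-values were adjusted over all 14508 genes (Benjamini-Hochberg, threshold 0.05). Standard errors are the log2 fold change over the square root of F, and an adjusted p of 1 is rounded. DESeq2 1.42.0 and limma 3.58.1 (voom) were alternatives. Exon lengths, coordinates and overlaps came from GENCODE M21 on GRCm38, and symbols matched 48970 of 49315 identifiers. The labels name no molecular identifiers, so intervals on reads cover counting error only.

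The members and lists were chosen with earlier results of these data known. Of each list the text names the 2 genes with the smallest p, where none passed, and the 2 with the highest per-length level. A gene that this rule names is not reported here. For the 2 members other than Arrdc4 with the largest spread it names the 3 closest genes. Gpd1, and Per1, Tsc22d3 and Dbp where set beside Arrdc2, were chosen after their values were seen. So were the clock genes named as lowest in KO heart 3 and WT heart 2.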

Additional observations from a re-analysis of the deposited data

How the results depend on the processing

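Of 17 other settings, Arrdc4 kept its direction in all and its call in all but 2. These were the settings without KO replicate 3 (log2 fold change -6.75, adjusted p = 0.0519 in edgeR, 0 genes called lower) and with a replicate block (-7.00, adjusted p = 0.0507 in edgeR, 0 genes called lower). Same-numbered KO and WT hearts had deviations that correlated at 0.18, -0.65 and -0.40 across genes, so the numbers were not taken to pair hearts. Over the settings that left out hearts, Arrdc4 ran from -7.58 to -6.68. Genes called higher in KO hearts ran from 0 to 1 over those settings; the 1 was Spp1 (log2 fold change 6.09, adjusted p = 0.00290 in edgeR), called without both WT replicate 3 and KO replicate 2, and genes called lower ran from 0 to 1. With those hearts left out in turn, Arrdc2 ran from -1.15 to 0.02 (0.019 without KO replicate 1), Txnip from -0.24 to 0.78, Mlxip from -0.12 to 0.18 and Mlx from -0.47 to 0.25, so that each took both signs. Mlxip also turned to -0.041 with an offset for the length trend, a setting chosen after the data were seen, as were the term for Y-linked reads and the separate level. Arrdc1, Arrdc3 and Mlxipl kept their sign in all 17. No member other than Arrdc4 and no list gene was called in any setting. Unadjusted p under 0.05 held 179 genes in the main test, 1126 without KO replicate 2 and 981 without both hearts. With the length of the longest transcript, the share of Txnip in the alpha-arrestin level was 86.4% in KO hearts and 82.9% in WT hearts. Arrdc1 had 50 to 76 reads per heart, so counting error bears on it more than on the other members with transcript in both genotypes.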
